A study of Mus musculus with 8 samples.

Results

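The Btg1 and Btg2 loci are the sites of open chromatin whose midpoint lies at chr10:95950000-96250000 (the Btg1 locus) or chr1:135930000-136010000 (the Btg2 locus) of the mouse build mm9. They hold 86 and 31 sites, 117 of the 79758 sites in the deposited table. The window limits are positions, but the loci themselves were selected on measured values of these data, above all the CPM of the Btg1 sites in WT eTreg and WT cTreg libraries. Values of that contrast, counts of sites past the threshold included, only describe what the choice used, and no evidence is drawn from them.

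ATAC-seq, which uses a transposase to tag accessible DNA for sequencing, was run on Treg cells (regulatory T cells) sorted from spleen and lymph nodes. The mice were mixed bone marrow chimeras, whose blood cells come from more than 1 marrow donor. The 8 libraries form 4 groups of 2, namely Pggt1b-deficient eTreg, Pggt1b-deficient cTreg, WT eTreg and WT cTreg cells. The series title speaks of effector Treg cells, for which eTreg stands, and cTreg is the usual short form for central Treg cells. Pggt1b is the gene of the beta subunit of a protein prenyl transferase, the enzyme that adds a geranylgeranyl lipid to small GTPases and other proteins. All groups share the chimera setting and the tissue. The labels name neither the Pggt1b allele and what drives its deletion, nor the host, the age or the sort gates, and whether a group's 2 libraries came from separate animals is not stated. P-values therefore reflect only how far these libraries spread, and that spread may be technical.

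Btg1 and Btg2 encode small proteins of the BTG/TOB family, which restrain cell division. They bind the CCR4-NOT complex, the main enzyme complex that shortens the poly(A) tails of mRNAs, and so speed mRNA decay. In mouse T cells both are known to keep naive cells quiescent, and their transcripts fall on activation. Btg2 is an immediate early gene and a known target of p53.

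The promoters of the 2 genes are shown as background, and no measured site was assigned to them. They were taken from RefSeq on the build GRCm38.p6, which is not the build of the sites, and cover the 250 bases before the annotated start, 5′ to 3′ on the strand of the gene. The Btg1 window is chr10:96616751-96617000 on the plus strand and the Btg2 window chr1:134079156-134079405 on the minus strand. Capitals mark matches, on either strand, to the letters of a cAMP response element and its half-site, a forkhead motif, a CCAAT box and a TATA box.
Btg1: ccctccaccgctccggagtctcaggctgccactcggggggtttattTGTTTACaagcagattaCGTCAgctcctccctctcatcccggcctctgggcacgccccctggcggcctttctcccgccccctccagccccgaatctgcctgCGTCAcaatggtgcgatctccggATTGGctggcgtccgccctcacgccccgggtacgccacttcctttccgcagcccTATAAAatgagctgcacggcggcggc
Btg2: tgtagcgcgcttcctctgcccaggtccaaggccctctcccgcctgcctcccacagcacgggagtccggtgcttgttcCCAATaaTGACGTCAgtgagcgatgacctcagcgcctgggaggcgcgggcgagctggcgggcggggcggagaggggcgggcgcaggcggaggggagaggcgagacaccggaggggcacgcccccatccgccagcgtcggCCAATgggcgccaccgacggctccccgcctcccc
The 7 motifs were chosen with the sequences in view. The forkhead letters GTAAACA stood once in the Btg1 window, on the minus strand, and not in the Btg2 window, and 3.17% of 32851 windows of equal length held them. The full cAMP response element TGACGTCA was found in the Btg2 window only and in 1.55% of all windows. Its half-site TGACG, part of the full element, had 2 matches in each and was in 17.8% of all. CCAAT stood once in the Btg1 and 2 times in the Btg2 window (33.8% of all), and TATAAA once in the Btg1 window (12.4% of all). The GC box GGGCGG, left in lower case, had 2 matches in the Btg1 and 3 in the Btg2 window (32.7% of all), where 1 pair of matches shares a base. The E-box CACGTG (6.02% of all) had none in either. A match describes letters and is not a bound site.

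No genome of the sites' build was at hand, so no site was assigned to a promoter, exon or intron, and neither the Treg label nor the loss of Pggt1b was checked at marker sites. In the GRCm38.p6 gene order, the nearest protein-coding genes are Eea1 and Gm46240 beside Btg1 and Fmod and Chit1 beside Btg2. Library totals were 2255214 and 1664702 counts for Pggt1b-deficient eTreg, 8854687 and 7153991 for Pggt1b-deficient cTreg libraries, 11194290 and 14974253 for WT eTreg and 12198749 and 12660311 for WT cTreg cells. The Pggt1b-deficient eTreg libraries stood apart by this low depth, with a median of 8 and 6 counts per tested site, against 29 to 59 in the others. Their log2 CPM correlated at r = 0.81 across sites, against 0.953 to 0.972 between the libraries of each other group. No count was recorded at 8 and 14 of the 86 Btg1 sites in these libraries, against 0 to 3 sites in the others. Counts of calls, medians and called sites that rest on them are also given without each.

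CPM are counts per 1000000 of the TMM-scaled library total. Called sites are those with a Benjamini-Hochberg adjusted p under 0.05 in edgeR's quasi-likelihood test, run over the 75352 sites that passed a filter on low counts. In sorted bulk cells, fewer cells with an open site and less opening per cell cannot be told apart. Of the Btg1 sites, 83 of 86 passed the filter, and of the Btg2 sites 30 of 31. No library had over 13 counts at the 3 Btg1 sites that did not pass, or over 10 at the Btg2 site.

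The summed CPM of the Btg1 locus, whose WT values the choice used, spread more across the groups than that of the Btg2 locus. The Btg1 sites together had 915 and 973 CPM in Pggt1b-deficient eTreg, 1188 and 1209 CPM in Pggt1b-deficient cTreg libraries, 691 and 677 CPM in WT eTreg and 1016 and 1079 CPM in WT cTreg libraries. No group overlapped with another, and the order was WT eTreg lowest, then Pggt1b-deficient eTreg, WT cTreg and Pggt1b-deficient cTreg. The mean sum of Pggt1b-deficient eTreg cells was 0.788 of that of Pggt1b-deficient cTreg cells and 1.38 times that of WT eTreg cells. Between WT eTreg and WT cTreg cells, the contrast in which the locus was chosen, the ratio was 0.653. The order of the groups and the ratio of 1.38 hold the same WT eTreg values and are a description only. The Btg2 sites together had 514.4 and 513.8 CPM in Pggt1b-deficient eTreg, 538 and 510.1 CPM in Pggt1b-deficient cTreg libraries, 489 and 473 CPM in WT eTreg and 478 and 469 CPM in WT cTreg libraries. Here the subsets overlapped within each genotype, while both Pggt1b-deficient groups lay above both WT groups. These sums were not tested, and with 2 libraries a group an exact permutation test of a pair of groups gives no p under 0.33.

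**Figure D1:**
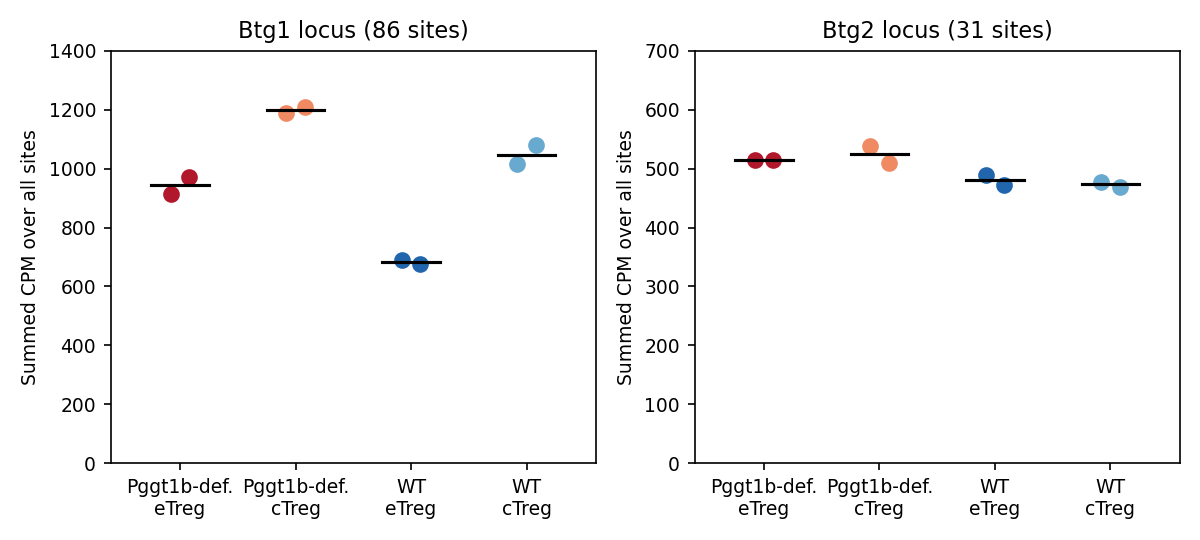
Summed CPM (y axis, from 0) over the 86 sites of the Btg1 locus and the 31 sites of the Btg2 locus. Points are single libraries and bars the mean of 2, by group. The choice of the Btg1 locus used its WT values. At the Btg1 locus the 2 Pggt1b-deficient eTreg libraries (915 and 973 CPM) lie between the WT eTreg (691 and 677 CPM) and Pggt1b-deficient cTreg libraries (1188 and 1209 CPM).

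Within Pggt1b-deficient cells, the comparison of eTreg with cTreg cells shares no library with the WT subset contrast. The fit of this comparison still takes the spread from all 8 libraries, and the loci were chosen with earlier results of these data known. It is thus not fully independent of that choice. Here 11 of 83 tested Btg1 sites fell in eTreg cells and none rose (edgeR, adjusted p under 0.05, n = 2 and 2). That is 13.3% of the tested Btg1 sites, against 4.52% of all tested sites called lower and 4.59% called higher. In 44 sites (53%) both eTreg libraries lay below both cTreg libraries and in 3 above, against 28.8% and 20.9% of all tested sites. The median log2 fold change was -0.54 over the tested Btg1 sites, -0.57 over all 86 without the filter and -0.48 with sites that lack counts in a group set at a floor of 3 counts over the group. Over all sites these medians were -0.06, -0.10 and -0.04. The median over the tested Btg1 sites was -0.62 without Pggt1b-deficient eTreg replicate 1 and -0.57 without its replicate 2, against -0.14 and -0.10 over all sites.

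The count of 11 depended on the libraries and the method, always with no site called higher. It was 2 on leaving out Pggt1b-deficient eTreg replicate 1 and 8 on leaving out its replicate 2. Leaving out Pggt1b-deficient cTreg replicate 1 gave 4, leaving out its replicate 2 gave 6, and fits without 1 WT library gave 8 to 10. DESeq2 called 5 sites, a fit of only the 4 libraries compared 3, and limma-voom with group weights, which allows each group its own spread, 1.

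The site with the smallest p, chr10:96038080-96038217, lies 41.7 kb below the centre of the widest site. It had 1.79 and 4.15 CPM in Pggt1b-deficient eTreg, 14.4 and 14.9 CPM in Pggt1b-deficient cTreg libraries, 2.41 and 3.19 CPM in WT eTreg and 13.0 and 10.8 CPM in WT cTreg libraries. The Pggt1b-deficient eTreg libraries were thus low and the Pggt1b-deficient cTreg libraries high. The WT libraries had the same order, which the choice of the locus bears on. In Pggt1b-deficient cells eTreg over cTreg came to -2.37 ± 0.42 on the log2 scale (SE, edgeR adjusted p = 0.000186), and this rests on 4 and 7 counts in the eTreg libraries against 128 and 108. This was the only one of the 11 calls that held in all 15 alternative fits (adjusted p 0.000121 to 0.0252).

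Among the strongest sites of the locus, chr10:96126440-96127151 (711 bp, 46.9 kb above the widest site) had 48.4 and 46.2 CPM in Pggt1b-deficient eTreg, 70.1 and 67.5 CPM in Pggt1b-deficient cTreg libraries, 27.6 and 31.4 CPM in WT eTreg and 53.8 and 66.0 CPM in WT cTreg libraries. The Pggt1b-deficient eTreg libraries lay above the WT eTreg and below all 4 cTreg libraries. In Pggt1b-deficient cells eTreg over cTreg came to -0.54 ± 0.14 on the log2 scale (SE, edgeR adjusted p = 0.0129, range over alternatives 0.0081 to 0.0721).

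The other strong sites were not called between Pggt1b-deficient subsets. chr10:96153421-96153936 had 66.8 and 51.0 CPM in Pggt1b-deficient eTreg, 76.6 and 70.2 CPM in Pggt1b-deficient cTreg libraries, 49.7 and 52.3 CPM in WT eTreg and 67.2 and 72.5 CPM in WT cTreg libraries. The difference of Pggt1b-deficient eTreg over cTreg cells was -0.30 ± 0.13 on the log2 scale (SE, edgeR adjusted p = 0.143). chr10:96083298-96083909 had 48.4 and 55.7 CPM in Pggt1b-deficient eTreg, 60.7 and 72.2 CPM in Pggt1b-deficient cTreg libraries, 36.2 and 37.0 CPM in WT eTreg and 56.5 and 55.3 CPM in WT cTreg libraries. Both Pggt1b-deficient eTreg libraries lay below both Pggt1b-deficient cTreg libraries at each of the 2 sites. The difference at chr10:96083298-96083909 was -0.36 ± 0.14 (SE, edgeR adjusted p = 0.0955).

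4 further called sites were weaker in CPM. The 65 bp site chr10:96117369-96117434 had 0.897 and 4.15 CPM in Pggt1b-deficient eTreg and 8.08 and 10.1 CPM in Pggt1b-deficient cTreg libraries, and the 66 bp site chr10:96082836-96082902 had 1.35 and 1.78 CPM against 5.72 and 7.59 CPM. These narrow sites rest on 2 and 7 and on 3 and 3 counts in the Pggt1b-deficient eTreg libraries. chr10:96072042-96072235 had 10.3 and 9.48 CPM in Pggt1b-deficient eTreg and 20.4 and 18.9 CPM in Pggt1b-deficient cTreg libraries. chr10:96156510-96156752 had 27.8 and 26.1 CPM in Pggt1b-deficient eTreg and 43.4 and 37.8 CPM in Pggt1b-deficient cTreg libraries. At all 4 sites the subsets were fully separated, with log2 differences, in the order named, of -1.96 ± 0.53, -2.1 ± 0.57, -0.98 ± 0.28 and -0.59 ± 0.17 (SE). Their edgeR adjusted p were 0.0156, 0.0157, 0.018 and 0.0259. Without Pggt1b-deficient eTreg replicate 1 these became 0.271, 0.132, 0.0821 and 0.0886, and that of chr10:96126440-96127151 became 0.0586. Leaving out replicate 2 of that group gave 0.0574 and 0.076 at chr10:96072042-96072235 and chr10:96156510-96156752. Leaving out Pggt1b-deficient cTreg replicate 1 gave 0.0721 at chr10:96126440-96127151, 0.0883 at chr10:96072042-96072235 and 0.176 at chr10:96156510-96156752. Leaving out replicate 2 of that group gave 0.0595 and 0.0698 at the narrow sites. Over all alternatives the adjusted p reached at most 0.271, 0.156, 0.0921 and 0.176 at the 4 sites, and every log2 value stayed negative. The size at chr10:96117369-96117434 rests on single libraries, with -1.14 without Pggt1b-deficient eTreg replicate 1 and -3.32 without its replicate 2.

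The other 5 called sites had log2 fold changes of -0.44 to -1.20 and were unstable as well. All 5 lost the call without Pggt1b-deficient eTreg replicate 1, with edgeR adjusted p of 0.125 to 0.421. In that fit chr10:95998207-95998404 had -0.40 in place of -0.71, and chr10:96032198-96032468 -0.75 in place of -1.20. Without replicate 2 of that group, chr10:96091028-96091579 and chr10:96249686-96250157 lost it (0.117 and 0.0683). Leaving out Pggt1b-deficient cTreg replicate 1 ended every one of these calls but that of chr10:96088394-96088624 (0.0901 to 0.209), and leaving out its replicate 2 every one but that of chr10:95998207-95998404 (0.0651 to 0.188). Leaving out either WT cTreg library ended 3 of them (0.0539 to 0.0687), and leaving out either WT eTreg library ended that of chr10:96091028-96091579 (0.0559 and 0.0576).

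**Figure D2:**
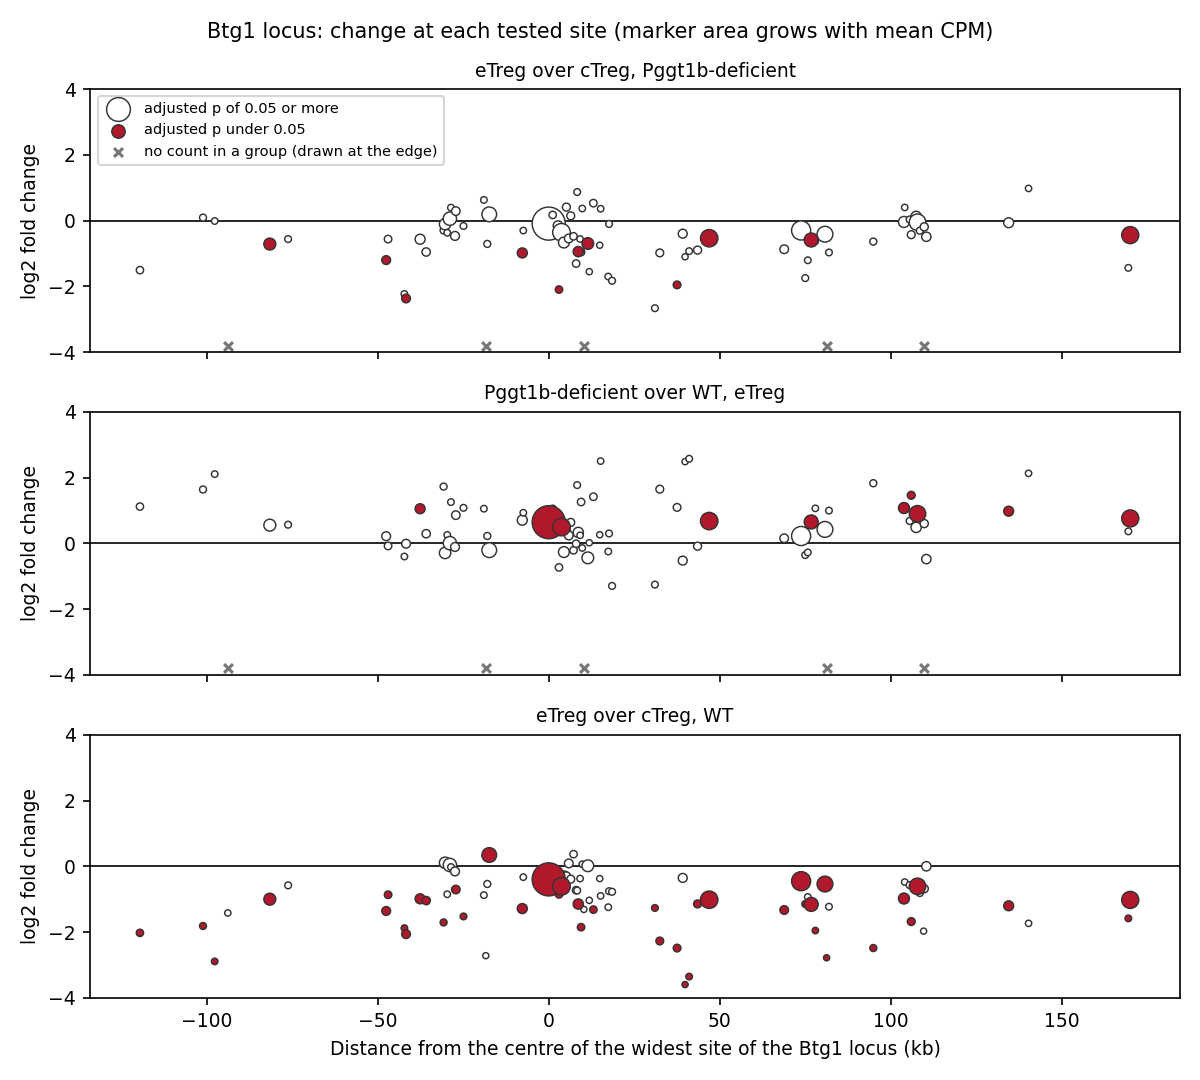
The log2 fold change (y axis) at each of the 83 tested Btg1 sites by distance from the centre of the widest site (x axis, kb), for eTreg over cTreg in Pggt1b-deficient cells, Pggt1b-deficient over WT in eTreg cells, and eTreg over cTreg in the WT. Filled points have an edgeR adjusted p under 0.05, marker area grows with mean CPM, and crosses at the edge mark sites without counts in a group. The 11 filled points between Pggt1b-deficient subsets lie below 0 and the 10 between genotypes in eTreg cells above 0, spread along the locus.

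The widest site of the Btg1 locus, chr10:96078851-96080873, spans 2022 bp and held 18.2% to 25.8% of the CPM of the locus in each library. It had 209 and 251 CPM in Pggt1b-deficient eTreg, 238 and 250.1 CPM in Pggt1b-deficient cTreg libraries, 153 and 140 CPM in WT eTreg and 185 and 200.2 CPM in WT cTreg libraries. All 4 Pggt1b-deficient libraries lay above all 4 WT libraries, and the subsets overlapped among the Pggt1b-deficient libraries but not among the WT libraries. The choice of the locus used the WT libraries, so the genotype differences at this site are no independent evidence of a rise. Between subsets of Pggt1b-deficient cells it differed by -0.09 ± 0.09 on the log2 scale (SE, edgeR adjusted p = 0.557), and by 0.026 without Pggt1b-deficient eTreg replicate 1. In eTreg cells the site rose with loss of Pggt1b by 0.65 ± 0.09 (edgeR adjusted p = 1.64e-06, range over 15 alternatives 1.08e-09 to 0.000704). In cTreg cells it rose by 0.34 ± 0.08 (edgeR adjusted p = 0.00927), the 1 Btg1 call of that comparison. That call was lost on leaving out either Pggt1b-deficient cTreg library (0.0789 and 0.155) or either WT cTreg library (0.285 and 0.0558). The range over all alternatives was 4.04e-08 to 0.285.

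In eTreg cells, 10 of the 83 tested Btg1 sites rose with loss of Pggt1b and none fell (edgeR, adjusted p under 0.05, n = 2 and 2). This is 12% of them, against 4.66% of all tested sites called higher and 6.43% called lower. Both Pggt1b-deficient eTreg libraries lay above both WT eTreg libraries at 36 sites (43.4%) and below at 10 (12%), against 21% and 31.5% of all tested sites. The median log2 fold change was 0.49 over the tested Btg1 sites, 0.44 over all 86 and 0.61 with sites lacking counts at their floor, against -0.09, -0.12 and -0.07 over all sites. This comparison shares the WT eTreg libraries with the contrast in which the locus was chosen. All 10 sites were also among the 43 Btg1 sites with an edgeR adjusted p under 0.05 and a lower value in WT eTreg cells. Because the choice of the locus used those libraries, neither these counts nor the calls at single sites are independent evidence of a rise. The alternative fits use the same libraries and do not remove this limit. The count ran from 8 to 11 with any single library left out and was 11 with DESeq2 and 6 with group weights. The median over the tested Btg1 sites was 0.45 without Pggt1b-deficient eTreg replicate 1 and 0.41 without its replicate 2, against -0.17 and -0.12 over all sites.

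After the widest site, the smallest p belonged to chr10:96187613-96187818, 107.9 kb above it. This 205 bp site had 51.1 and 56.3 CPM in Pggt1b-deficient eTreg, 53.6 and 57.3 CPM in Pggt1b-deficient cTreg libraries, 32.7 and 25.0 CPM in WT eTreg and 40.8 and 46.6 CPM in WT cTreg libraries. The WT eTreg libraries were the low ones, and the Pggt1b-deficient subsets overlapped. It rose in Pggt1b-deficient over WT eTreg cells by 0.90 ± 0.15 on the log2 scale (edgeR adjusted p = 8.5e-05). The last site inside the window, chr10:96249686-96250157, had 47.5 and 47.4 CPM in Pggt1b-deficient eTreg, 65.5 and 63.5 CPM in Pggt1b-deficient cTreg libraries, 29.7 and 26.6 CPM in WT eTreg and 56.6 and 57.3 CPM in WT cTreg libraries. Here the Pggt1b-deficient eTreg libraries took a middle place, with a rise over WT eTreg cells of 0.76 ± 0.14 (edgeR adjusted p = 0.000333). chr10:96126440-96127151, described above, rose by 0.68 ± 0.15 (edgeR adjusted p = 0.00209). These 3 calls and that of the widest site held in all 15 alternatives.

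chr10:96183688-96183815 and chr10:96042197-96042318 rose by 1.08 ± 0.25 and 1.06 ± 0.29 on the log2 scale in Pggt1b-deficient over WT eTreg cells (edgeR adjusted p = 0.00349 and 0.0134). The first call was lost without Pggt1b-deficient eTreg replicate 2 (adjusted p = 0.111, range 0.00217 to 0.111). The second was lost without Pggt1b-deficient eTreg replicate 1 or WT eTreg replicate 1 (0.106 and 0.0603, range 0.0116 to 0.106). The other 4 called sites, chr10:96083298-96083909, chr10:96156510-96156752, chr10:96185777-96185994 and chr10:96214276-96214477, had log2 fold changes of 0.50 to 1.46, and each lost its call in some fits without 1 library. Without WT eTreg replicate 2 all 4 did (edgeR adjusted p 0.0555 to 0.171), and without WT eTreg replicate 1 all but chr10:96156510-96156752 (0.0578 to 0.104). Without Pggt1b-deficient eTreg replicate 1 all but chr10:96083298-96083909 did (0.146 to 0.501), and chr10:96214276-96214477 had 0.50 in place of 0.98. Without replicate 2 of that group, chr10:96083298-96083909 and chr10:96185777-96185994 did (0.128 and 0.0889). chr10:96185777-96185994 was below the count limit of the naming rule and is named after its values were seen.

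**Figure D3:**
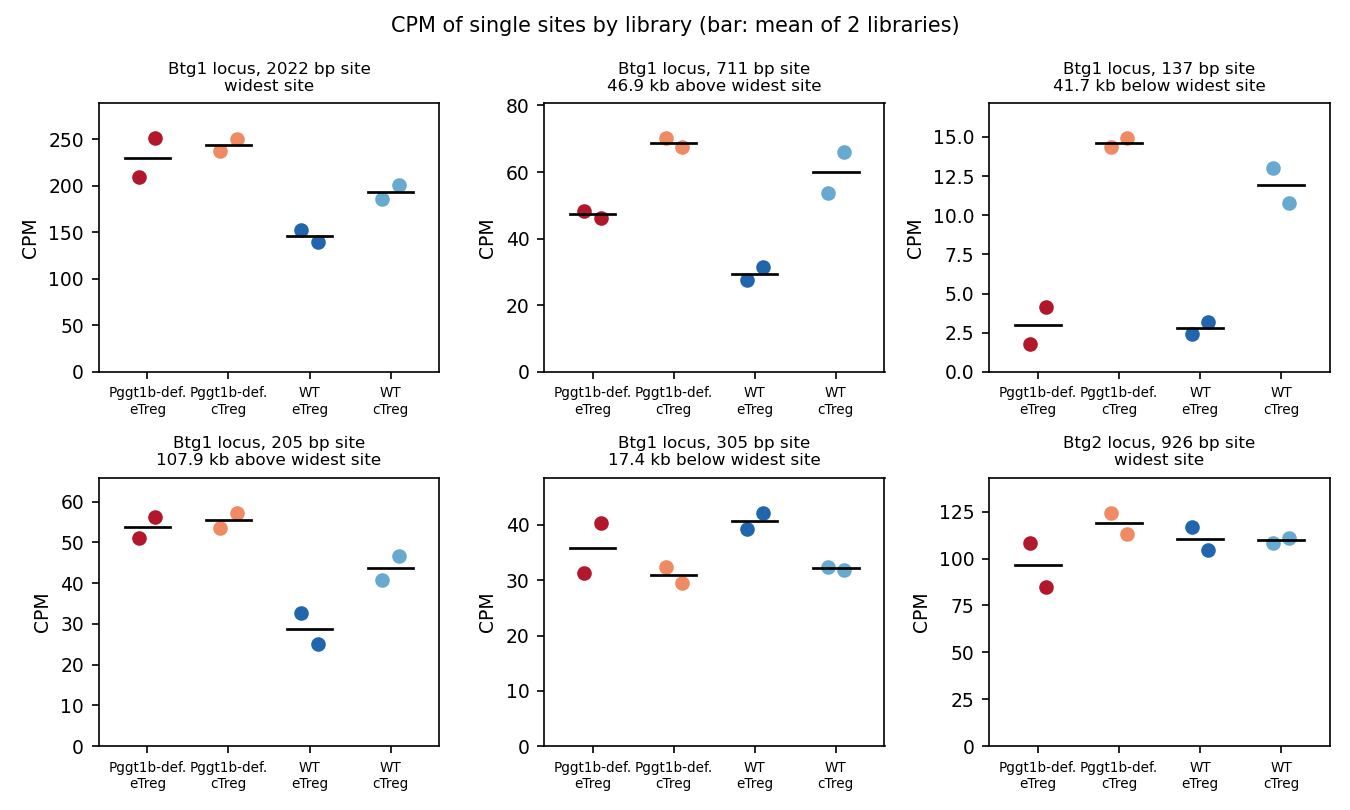
CPM (y axis, from 0) of 6 single sites in each library, with bars at the mean of 2. The 137 bp site is low in all 4 eTreg libraries, and the 2022 bp site lies at 209 to 251 CPM in Pggt1b-deficient and 140 to 200.2 CPM in WT libraries. The choice of the Btg1 locus used the WT values. The 926 bp site of the Btg2 locus lies at 84.7 to 124 CPM in Pggt1b-deficient and 105 to 117 CPM in WT libraries.

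In cTreg cells, the widest Btg1 site alone rose with loss of Pggt1b, 1.2% of 83 tested, against 0.53% of all tested sites called higher and 1.69% called lower. The comparison shares the WT cTreg libraries with the contrast in which the locus was chosen, so its counts, like those in eTreg cells, are no independent evidence. Both Pggt1b-deficient cTreg libraries lay above both WT cTreg libraries at 27 Btg1 sites (32.5%) and below at 9 (10.8%), against 20.7% and 26.3% of all tested sites. Group weights called 4 Btg1 sites higher, and a fit of only the 4 cTreg libraries called 5. The median log2 fold change was 0.18 over the tested Btg1 sites and 0.20 over the tested Btg2 sites, against -0.03 over all sites. At the Btg2 locus no site passed the threshold with edgeR or DESeq2, 3 had an unadjusted p under 0.05, all higher, and group weights called 1. At that unadjusted threshold 5.12% of all tested sites were higher and 8.6% lower.

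No site of either locus passed the threshold for a difference in the effect of Pggt1b loss between eTreg and cTreg cells (edgeR interaction test, all 8 libraries), where 0.957% of all tested sites were called higher and 0.555% lower. DESeq2 and group weights also called none. At an unadjusted p under 0.05, 13 Btg1 sites were higher and 1 lower, and 2 Btg2 sites were higher and 3 lower. These are 15.7% and 1.2% of the tested Btg1 sites and 6.67% and 10% of the tested Btg2 sites, against 7.17% and 7.9% of all tested sites. At the widest Btg1 site the interaction was 0.31 ± 0.12 (SE, edgeR adjusted p = 0.182). The interaction contains the WT subset contrast, which the choice of the locus used, so the counts above are a description. Without Pggt1b-deficient eTreg replicate 1 or 2, 1 and 2 Btg1 sites were called higher. Without Pggt1b-deficient cTreg replicate 2, 1 Btg2 site was called lower. The range of the adjusted p at the widest site over 14 alternatives was 0.053 to 0.513.

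In the WT, the contrast used in the choice, both eTreg libraries lay below both cTreg libraries at 71 Btg1 sites and above at 1, beside 33.9% and 33.7% of all tested sites. An edgeR adjusted p under 0.05 was given to 43 sites with a lower and 1 with a higher value, 51.8% and 1.2% of those tested, beside 14.9% and 13.8% of all tested sites. The choice of the locus bears on these counts, and nothing is read from them. The lowest log2 values with a mean of at least 20 counts were at chr10:96117369-96117434 (-2.49 ± 0.39, SE, log2), chr10:96174743-96174825 (-2.49 ± 0.50), chr10:96112282-96112417 (-2.27 ± 0.38) and chr10:96038080-96038217 (-2.06 ± 0.26). chr10:96174743-96174825 had 3.59 and 1.19 CPM in Pggt1b-deficient eTreg, 2.13 and 5.93 CPM in Pggt1b-deficient cTreg libraries, 0.556 and 0.815 CPM in WT eTreg and 3.30 and 4.67 CPM in WT cTreg libraries, with the Pggt1b-deficient subsets overlapping. At chr10:96112282-96112417 the values were 2.69 and 5.93 CPM in Pggt1b-deficient eTreg, 9.31 and 6.90 CPM in Pggt1b-deficient cTreg libraries, 0.556 and 1.90 CPM in WT eTreg and 6.12 and 6.57 CPM in WT cTreg libraries. There the Pggt1b-deficient subsets were separated, without a call. The 1 higher site, chr10:96062325-96062630, had 31.4 and 40.3 CPM in Pggt1b-deficient eTreg, 32.4 and 29.5 CPM in Pggt1b-deficient cTreg libraries, 39.3 and 42.2 CPM in WT eTreg and 32.5 and 31.9 CPM in WT cTreg libraries. Its WT groups did not overlap, and its Pggt1b-deficient groups did.

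Over the 45 tested Btg1 sites with a mean of at least 20 counts in both contrasts, the subset differences of the 2 genotypes correlated at r = 0.575, with 33 sites negative in both and 32 closer to 0 in Pggt1b-deficient cells. The median was -0.48 in Pggt1b-deficient and -0.73 in WT cells. Over 18 such Btg2 sites r was -0.354, with medians of -0.03 and 0.02. Neighbouring sites share the libraries and may be parts of 1 open region, so these values describe the sites only. The locus was chosen on the WT difference, so a WT median farther from 0 than that of Pggt1b-deficient cells is no evidence that the subset difference is smaller without Pggt1b. Site by site, the mean of Pggt1b-deficient eTreg cells lay between those of WT eTreg and Pggt1b-deficient cTreg cells at 43 of 83 tested Btg1 sites. At the Btg2 locus it did so at 6 of 30 sites. The choice of the Btg1 locus bears on its low WT eTreg values, and no share over all sites was computed. These counts of sites are thus a description only.

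**Figure D4:**
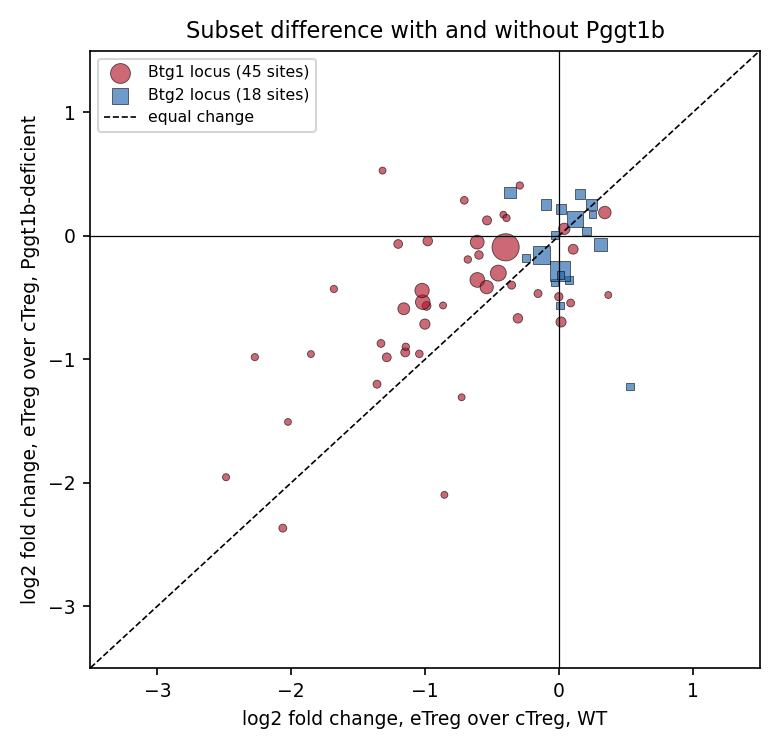
The log2 fold change of eTreg over cTreg at single sites in Pggt1b-deficient cells (y axis) and in WT cells (x axis), for 45 Btg1 and 18 Btg2 sites with a mean of at least 20 counts in both contrasts. Marker area grows with mean CPM and the dashed line marks equal change. Of the Btg1 sites 33 lie below 0 on both axes, and the medians of the Btg2 sites are near 0.

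The Btg1 sites fall into 15 stretches when split wherever at least 5 kb hold no site. The stretch from the widest site to 18.5 kb above it held 27 sites and summed to 364 and 406 CPM in Pggt1b-deficient eTreg, 439 and 477 CPM in Pggt1b-deficient cTreg libraries, 275 and 270 CPM in WT eTreg and 362 and 385 CPM in WT cTreg libraries. Its mean in Pggt1b-deficient cells was 0.841 as high in eTreg as in cTreg cells. A stretch of 8 sites 31.1 to 46.9 kb above the widest site summed to 64.6 and 68.2 CPM in Pggt1b-deficient eTreg, 106 and 110.3 CPM in Pggt1b-deficient cTreg libraries, 43.1 and 48.9 CPM in WT eTreg and 93.1 and 104 CPM in WT cTreg libraries. The ratio of eTreg to cTreg cells was lower there, at 0.613 in Pggt1b-deficient cells. A stretch of 10 sites 103.9 to 110.4 kb above the widest site had 113 and 116 CPM in Pggt1b-deficient eTreg and 119 and 125 CPM in Pggt1b-deficient cTreg libraries, a ratio of 0.936. Its WT eTreg libraries had 73.9 and 65.3 CPM and its WT cTreg libraries 108.1 and 108.0 CPM. It held 3 of the 10 sites that rose in Pggt1b-deficient over WT eTreg cells, and none of the 11 lower in Pggt1b-deficient eTreg than cTreg cells. A stretch of 4 sites at -18.96 to -17.4 kb from the widest site had 35.4 and 45.0 CPM in Pggt1b-deficient eTreg, 38.0 and 36.0 CPM in Pggt1b-deficient cTreg libraries, 42.2 and 45.4 CPM in WT eTreg and 37.0 and 38.4 CPM in WT cTreg libraries. The Pggt1b-deficient subsets overlapped there, and the WT eTreg libraries lay above the WT cTreg libraries. These stretches were chosen after their values were seen, and differences between them were not tested.

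At the Btg1 locus, more of the sites over 100 bp than of the narrower sites were called. Of 39 tested Btg1 sites over 100 bp, 9 were called lower in Pggt1b-deficient eTreg than cTreg cells and 10 higher in Pggt1b-deficient than WT eTreg cells. Of 44 sites of up to 100 bp, these were 2 and 0. The same split was not made over all tested sites, so these counts describe the Btg1 sites only. The narrow sites had a median of 2 counts in the Pggt1b-deficient eTreg libraries and the wider ones 19.5. At 2 counts only a large difference can be detected at a single site. In the WT subset contrast, a description only, 16 of the 44 narrow and 27 of the 39 wider sites were lower past the threshold. Whether depth accounts for the fewer calls at narrow sites was not tested.

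At the Btg2 locus few sites were tested, so its counts of calls are read only beside the shares over all tested sites. In Pggt1b-deficient cells 1 of 30 tested sites was higher in eTreg than in cTreg cells and none lower (3.33%, against 4.59% and 4.52% of all tested sites), and the median log2 fold change was -0.11. That median was 0.17 without Pggt1b-deficient eTreg replicate 1 and -0.089 without its replicate 2. Both eTreg libraries lay above both cTreg libraries at 9 Btg2 sites (30%) and below at 8 (26.7%), against 20.9% and 28.8% of all tested sites. Between genotypes more sites were separated upwards than downwards. In eTreg cells both Pggt1b-deficient libraries lay above both WT libraries at 12 Btg2 sites (40%) and below at 4 (13.3%), against 21% and 31.5% of all tested sites. In cTreg cells these were 13 (43.3%) and 2 (6.67%), against 20.7% and 26.3%. Its widest site, chr1:135989413-135990339 (926 bp), had 109 and 84.7 CPM in Pggt1b-deficient eTreg, 124 and 113 CPM in Pggt1b-deficient cTreg libraries, 117 and 105 CPM in WT eTreg and 108 and 111 CPM in WT cTreg libraries. The genotypes overlapped in eTreg but not in cTreg cells, where the Pggt1b-deficient libraries were higher by 0.12 ± 0.09 on the log2 scale without a call (SE, edgeR adjusted p = 0.625). The Pggt1b-deficient subsets did not overlap, and their difference of -0.28 ± 0.11 (SE, log2) had an edgeR adjusted p of 0.0941. Over 15 alternative fits this difference depended on the libraries and ran from -0.50 to -0.14. chr1:135957437-135958030 had 83.9 and 74.7 CPM in Pggt1b-deficient eTreg, 91.1 and 86.0 CPM in Pggt1b-deficient cTreg libraries, 73.4 and 67.9 CPM in WT eTreg and 79.9 and 74.4 CPM in WT cTreg libraries. chr1:135975505-135976150 had 79.8 and 74.1 CPM in Pggt1b-deficient eTreg, 70.4 and 70.1 CPM in Pggt1b-deficient cTreg libraries, 63.2 and 61.5 CPM in WT eTreg and 60.6 and 54.2 CPM in WT cTreg libraries. In each subset the Pggt1b-deficient libraries were above the WT libraries at both sites, with no call. chr1:135995706-135996015 had 32.3 and 46.2 CPM in Pggt1b-deficient eTreg, 44.3 and 36.2 CPM in Pggt1b-deficient cTreg libraries, 48.5 and 45.2 CPM in WT eTreg and 41.6 and 33.7 CPM in WT cTreg libraries, with the Pggt1b-deficient subsets overlapping. Between Pggt1b-deficient subsets these 3 sites differed by -0.15 ± 0.11, 0.14 ± 0.12 and -0.07 ± 0.17 (SE, log2), in the order named. None was called, and the last turned positive without Pggt1b-deficient eTreg replicate 1 or Pggt1b-deficient cTreg replicate 1 (0.18 and 0.08).

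**Figure D5:**
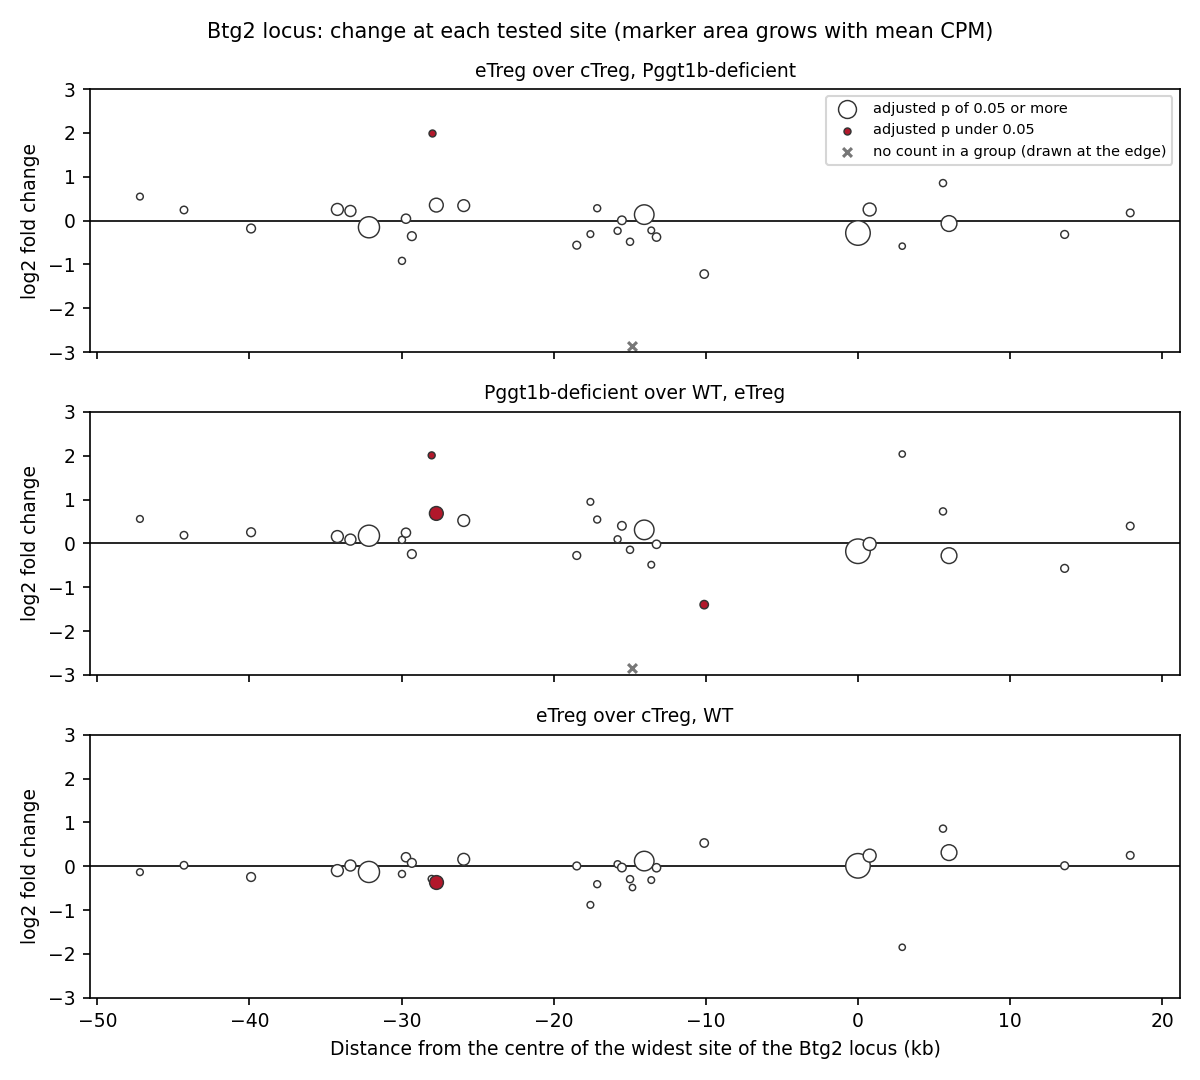
The log2 fold change (y axis) at each of the 30 tested Btg2 sites by distance from the centre of the widest site (x axis, kb), in the same 3 contrasts and with the same marks as for the Btg1 locus. The largest markers, which are the strongest sites, lie near 0 in all 3 panels, and 1, 3 and 1 sites have an edgeR adjusted p under 0.05.

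In Pggt1b-deficient over WT eTreg cells, 2 Btg2 sites were higher and 1 lower, 6.67% and 3.33% of 30 tested, against 4.66% and 6.43% of all tested sites. chr1:135961981-135962344 had 33.6 and 41.5 CPM in Pggt1b-deficient eTreg, 31.4 and 26.6 CPM in Pggt1b-deficient cTreg libraries, 23.0 and 23.3 CPM in WT eTreg and 29.2 and 30.4 CPM in WT cTreg libraries. The WT eTreg libraries were lowest and the Pggt1b-deficient eTreg libraries highest. It rose by 0.68 ± 0.17 on the log2 scale in Pggt1b-deficient over WT eTreg cells (edgeR adjusted p = 0.00735), but had an adjusted p of 0.0949 without Pggt1b-deficient eTreg replicate 2 (range 0.00485 to 0.0949). Its WT subset difference, given as a description, was -0.36 ± 0.13 (SE, log2). Up to 4 sites per direction were separated between WT subsets with a mean of at least 20 counts and the largest differences, and at the Btg2 locus these lay between -0.41 and 0.86.

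The 49 bp site beside it, chr1:135961831-135961880, was below the count limit of the naming rule and is named after its values were seen. It had 10 and 12 counts in Pggt1b-deficient eTreg libraries, against 16 and 7 in the deeper Pggt1b-deficient cTreg libraries, 20 and 15 in WT eTreg and 18 and 25 in WT cTreg libraries. These are 4.48 and 7.11 CPM in Pggt1b-deficient eTreg, 1.79 and 0.966 CPM in Pggt1b-deficient cTreg libraries, 1.85 and 1.02 CPM in WT eTreg and 1.45 and 1.98 CPM in WT cTreg libraries. It was the 1 called site between Pggt1b-deficient subsets, higher in eTreg cells by 2.00 ± 0.60 on the log2 scale (SE, edgeR adjusted p = 0.0292), and it rose by 2.01 ± 0.58 over WT eTreg cells (edgeR adjusted p = 0.0188). Without Pggt1b-deficient eTreg replicate 2 these became 0.143 and 0.128. The first became 0.0541 on leaving out Pggt1b-deficient cTreg replicate 1 and 0.143 on leaving out its replicate 2, and the second 0.161 without WT eTreg replicate 2. The ranges over all alternatives were 0.029 to 0.143 and 0.0109 to 0.161.

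The site that was lower, chr1:135979635-135979904, had 4.04 and 2.96 CPM in Pggt1b-deficient eTreg, 9.87 and 6.62 CPM in Pggt1b-deficient cTreg libraries, 9.08 and 9.71 CPM in WT eTreg and 7.17 and 5.86 CPM in WT cTreg libraries. The Pggt1b-deficient eTreg libraries were the low ones, with 9 and 5 counts. Its fall over WT eTreg cells was -1.40 ± 0.42 (SE, log2, edgeR adjusted p = 0.0234). This call was lost without Pggt1b-deficient eTreg replicate 1 or 2 (0.0776 and 0.104) and without WT eTreg replicate 2 (0.0897), and the range over alternatives was 0.0205 to 0.159.

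Windows with a like pattern over the 8 libraries were sought among all windows of the same length with at least 10 sites, by Pearson's r of log2 summed CPM. For the Btg1 locus, 183 of 2994 windows (6.11%) had r over 0.9. The highest were at 121.8 to 122.1 Mb of chromosome 10 (r = 0.994), 57.9 to 58.2 Mb of chromosome 2 (0.99) and 11.4 to 11.7 Mb of chromosome 11 (0.989). The first of these had 129.2 and 128.6 CPM in Pggt1b-deficient eTreg, 167 and 168 CPM in Pggt1b-deficient cTreg libraries, 86.4 and 86.3 CPM in WT eTreg and 147 and 149.6 CPM in WT cTreg libraries, the same order of groups. For the Btg2 locus, 17 of 2506 windows (0.678%) had r over 0.9, led by 40.96 to 41.04 Mb of chromosome 9 (0.981), 95.12 to 95.2 Mb of chromosome 11 (0.954) and 25.28 to 25.36 Mb of chromosome 2 (0.951). The log2 sums of the Btg2 locus spanned only 0.20, against 0.84 for the Btg1 locus. The points share libraries and depth, and no gene was assigned to these windows.

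At the limits of the Btg1 window, the midpoint of the last site inside lies 0.0785 kb within the edge and that of the next site, chr10:96250333-96250453, 0.393 kb beyond it. That outside site averaged 1.49 CPM in Pggt1b-deficient eTreg, 5.27 CPM in Pggt1b-deficient cTreg libraries, 1.40 CPM in WT eTreg and 3.92 CPM in WT cTreg libraries. On the other side, the first site inside is 10.3 kb within the edge and the nearest outside, chr10:95943928-95944264, is 5.90 kb beyond it, with 5.37 CPM in Pggt1b-deficient eTreg, 11.7 CPM in Pggt1b-deficient cTreg libraries, 3.17 CPM in WT eTreg and 11 CPM in WT cTreg libraries. Both outside sites had lower means in eTreg than in cTreg libraries of each genotype. The Btg2 window is set apart, since the nearest sites outside are 124 kb and 75.8 kb beyond its edges and those inside 12.7 kb and 2.23 kb within them. Those outside averaged 0.897 and 1.49 CPM in Pggt1b-deficient eTreg, 2.31 and 0.794 CPM in Pggt1b-deficient cTreg libraries, 3.13 and 1.40 CPM in WT eTreg and 3.63 and 0.281 CPM in WT cTreg libraries.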

How the data were processed

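ATAC-seq counts of 8 libraries were analysed. The authors deposited raw counts, whole numbers for each site and library, in 1 table of 79758 intervals. The submitters' processing notes name MACS2 2.1.1, Trimmomatic 0.36, bedtools, Picard 2.9.4 and SAMtools, and the mouse build mm9. The aligner, the shift of read ends, the peak threshold, the pooling of libraries and the choice of reads or fragments were not given in the sources used here. Whether starts count from 0 or 1 is not stated. The members, gene lists and tests were chosen with earlier results of these data known.

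Tests on the counts used edgeR 4.0.16 under R 4.3.3 (its filterByExpr kept 75352 sites, TMM, 1 mean for each group in a joint model, quasi-likelihood F tests, two-sided, Benjamini-Hochberg adjustment over all tested sites). Each standard error is the size of the log2 value divided by the root of its F statistic. The steps were run on simulated data to check the code, and no result here rests on that run. Alternatives used limma 3.58.1 and DESeq2 1.42.0. Sites named are, per locus, the 4 with the highest mean CPM, the widest, those called with a mean of at least 20 counts (up to 6 per direction for Btg1 and 4 for Btg2, by p), and the 4 largest WT subset differences per direction without overlap. The BTG/TOB relatives Btg3, Btg4, Tob1 and Tob2 and cell markers were not analysed here, since no genome of this build was used. GC content was not checked for the same reason. Depth limits precision, and counting error is largest in the Pggt1b-deficient eTreg libraries.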

Additional observations from a re-analysis of the deposited data

How the results depend on the processing

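Of the counts of called sites per locus under alternative settings, 114 stayed within 1.5 times their value and 44 did not. Those that stayed include counts of 0 that remained 0, and counts were compared without regard to direction. For Pggt1b-deficient eTreg against cTreg cells, the 11 Btg1 calls became 4 with a 2-fold minimum, 5 with DESeq2, 1 with group weights and 3 with only the 4 libraries compared, and 2 to 10 with a library left out. The 1 Btg2 call became 0 with only those 4 libraries. With a library left out the calls changed, and in some of these fits a Btg2 site was called lower in eTreg cells. For Pggt1b-deficient against WT eTreg cells, the 10 Btg1 calls became 3 with a 2-fold minimum and 6 with group weights, and 8 to 11 with a library left out, and the 3 Btg2 calls 0 to 3. For cTreg cells, the 1 Btg1 call became 0 with a 2-fold minimum, 2 with DESeq2 size factors or no low-count filter, 4 with group weights and 5 with only the 4 libraries compared, and 0 to 3 with a library left out. At the Btg2 locus that comparison gave 1 call with group weights or only 4 libraries and 0 in all fits that left out a library. Interaction calls, 0 in the full fit, ran to 0 to 2 at the Btg1 and 0 to 1 at the Btg2 locus with a library left out. In the WT subset contrast, a description only, the 44 Btg1 sites past the threshold became 28 to 49 with a library left out. The 1 Btg2 site there became 0 with a 2-fold minimum or DESeq2, 2 with DESeq2 size factors, no low-count filter or the replicate block, 3 with group weights or only 4 libraries, and 0 to 2 with a library left out. A fit that leaves a group with 1 library assumes that it varies like the others.

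The log2 ratios of summed CPM kept their sign at the Btg1 locus. With library totals in place of TMM the Btg2 ratio became 0.13 for Pggt1b-deficient over WT eTreg cells (0.10 with TMM) and -0.026 for WT eTreg over cTreg cells (0.02 with TMM). With a library left out the Btg2 ratio between Pggt1b-deficient subsets ran from -0.066 to 0.011, positive without Pggt1b-deficient cTreg replicate 1, the WT subset ratio ran from -0.0016 to 0.066 and the ratio between genotypes in eTreg cells from 0.067 to 0.12. With a library left out, the uncalled value at chr10:96153421-96153936 in Pggt1b-deficient over WT eTreg cells (0.23, log2) ran from -0.011, without Pggt1b-deficient eTreg replicate 1, to 0.38. Between Pggt1b-deficient subsets the widest Btg1 site ran from -0.23 to 0.026, without the same library, and chr1:135995706-135996015 from -0.33 to 0.18, without it, with 0.08 without Pggt1b-deficient cTreg replicate 1. The cause of these shifts was not tested. Samples with the same replicate number showed little shared deviation (r of -0.016 to 0.057 across 75352 sites, highest between WT eTreg and WT cTreg libraries). Counting error at low depth can hide a pairing, so this cannot show whether the numbers pair libraries. With the replicate block 9 Btg1 sites were called between Pggt1b-deficient subsets, 10 between genotypes in eTreg and 1 in cTreg cells, and 42 in the WT subset contrast.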
